A study of Mus musculus with 3 samples.

Results

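The alpha- and delta-cell factors and markers Irx1, Irx2, Pou3f4, Ttr, Gc, Hhex, Rbp4 and Etv1 were followed across 3 libraries of mouse pancreatic islets. The genes were chosen by name, and all 8 were found among the 24119 genes of the deposited tables. All islets came from male C57BL/6 mice, for which the labels name no altered allele. The ND library is from animals kept on the ND diet and gavaged with DMSO, the HFD_DMSO library from HFD-fed animals gavaged with DMSO, and the HFD_CGP library from HFD-fed animals gavaged with CGP 57380, an inhibitor of the MNK kinases. Gavage lasted 1 month in each group, and the labels also give 4 months without saying whether this is age or feeding time. Each group has 1 library, and the number of animals behind a library is not given, so no value has a replicate error and every comparison is between 2 libraries.

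Alpha cells secrete glucagon (Gcg) and delta cells secrete somatostatin (Sst), both from the same islets as the insulin-secreting beta cells. Irx1 and Irx2 encode Iroquois homeobox factors and Pou3f4 (Brn4) encodes a POU-homeodomain factor, and all are known from alpha cells. Hhex encodes the homeobox factor that delta cells need to keep their identity, and Etv1 encodes an ETS-family transcription factor. Ttr, Gc and Rbp4 encode secreted carriers, of thyroid hormone, vitamin D and retinol, which are best known from the liver and are also islet genes: Ttr and Gc are used as alpha-cell markers and Rbp4 as a delta-cell marker in the mouse.

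The promoters of Irx2 and Pou3f4, the members that were called in a comparison, and of Gc, an abundant alpha-cell marker that was not, are shown because their base composition differs. Each line gives the 250 bases upstream of the RefSeq transcript start, 5′ to 3′ on the gene's strand, build GRCm38.p6; for Pou3f4 that start lies inside the GENCODE gene, so the window overlaps its first bases. Capitals mark, on either strand, TAAT (a homeodomain core), GGAA (an ETS core), TATAAA (the TATA box), TGCTGA (a MAF core) and the forkhead motifs TGTTTAC or TGTTTGC.
Irx2 (chr13:72628570-72628819, + strand): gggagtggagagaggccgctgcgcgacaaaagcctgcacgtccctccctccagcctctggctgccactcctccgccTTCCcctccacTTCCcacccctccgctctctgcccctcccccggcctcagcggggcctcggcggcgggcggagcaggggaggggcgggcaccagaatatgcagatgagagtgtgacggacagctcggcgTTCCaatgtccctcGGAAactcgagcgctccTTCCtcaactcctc
Pou3f4 (chrX:110814129-110814378, + strand): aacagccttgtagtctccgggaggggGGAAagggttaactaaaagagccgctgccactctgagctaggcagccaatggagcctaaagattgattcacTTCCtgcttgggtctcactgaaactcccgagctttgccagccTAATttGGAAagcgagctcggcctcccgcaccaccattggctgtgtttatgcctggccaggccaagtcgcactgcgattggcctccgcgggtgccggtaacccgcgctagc
Gc (chr5:89457899-89458148, − strand): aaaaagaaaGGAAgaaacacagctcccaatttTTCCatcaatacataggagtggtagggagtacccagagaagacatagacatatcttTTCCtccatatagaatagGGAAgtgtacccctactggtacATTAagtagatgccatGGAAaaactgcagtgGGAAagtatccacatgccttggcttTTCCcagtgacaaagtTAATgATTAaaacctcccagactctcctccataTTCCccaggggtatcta

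The Irx2 window was 68.4% GC with 19 CpG dinucleotides and held 5 matches to GGAA and 0 to TAAT. The Pou3f4 window was 58.0% GC with 13 CpG, 3 matches to GGAA and 1 to TAAT. The Gc window was 42.0% GC with 0 CpG, 8 matches to GGAA and 3 to TAAT. Over 32851 RefSeq promoter windows of the same length the median was 52.4% GC and 6 CpG, 93.5% held GGAA and 54.9% held TAAT, so these short matches are common and describe the letters only. The longer motifs TATAAA (in 12.4% of windows), TGCTGA (16.1%), TGTTTAC (3.17%) and TGTTTGC (4.30%) had 0 matches in the printed promoters. Base composition did not separate called from uncalled members. Among windows of uncalled members not printed, Hhex had 76% GC with 32 CpG. Rbp4 had 40.8% GC in its first window and 70.8% with 28 CpG in its second, and Etv1 had 46.4% and 44.4%.

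Reads per gene, recovered from the deposited values, summed to 17129042 for ND, 16297623 for HFD_DMSO and 17623833 for HFD_CGP. Levels are given in CPM, the reads of a gene scaled to the library total. Insulin transcripts (Ins1 and Ins2) took 15.3% of the ND reads, 43.5% of the HFD_DMSO reads and 19.1% of the HFD_CGP reads, and a larger insulin share lowers the CPM of the other genes. Fold changes use TMM factors instead, which shifted every log2 value by 0.54 between HFD_DMSO and ND, by -0.65 between HFD_CGP and HFD_DMSO and by -0.02 between HFD_CGP and ND relative to library totals. Rose and fell are used for genes with an adjusted p under 0.05 in the authors' deposited table for the pair. Recomputation showed that this test fixed the variation between samples at a coefficient of 0.2, which these data cannot check. Intervals given with levels and fold changes are 95% and cover counting error only. In bulk islets, fewer cells of a type and less RNA per cell cannot be told apart.

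In HFD_DMSO vs ND, which addresses the diet, 2 of the 8 genes, Irx2 and Pou3f4, fell and 0 rose. Of the 22899 genes tested 25.8% were called, 13.2% lower and 12.6% higher (2888 higher and 3023 lower genes, against 1600 and 5677 with library totals). A likelihood-ratio test called 2893 higher and 1829 lower with a correction for GC content, and 3423 higher and 3421 lower without it. Where the variation between samples was set to a coefficient of 0.4, the edgeR exact test called 0 of the 8. The median log2 fold change of the 8 was -0.73, beside -0.12 over all genes tested. The edgeR exact test behind the authors' deposited tables called 0 of 8 in the other comparisons. Between HFD_CGP and HFD_DMSO, which addresses the inhibitor, 6.35% of 22208 genes were called, 1.4% higher and 4.95% lower (311 and 1100 genes, against 3209 and 679 with library totals, which call Irx1 and Irx2 higher). Between HFD_CGP and ND 8.93% of 23063 genes were called, 4.57% higher and 4.36% lower. The median log2 fold change of the 8 genes was 0.08 for HFD_CGP vs HFD_DMSO and -0.45 for HFD_CGP vs ND, beside 0.04 and -0.06 over all genes. An unadjusted p under 0.05 in the authors' deposited tables was found for 4 members in HFD_DMSO vs ND, for 1 between HFD_CGP and HFD_DMSO and for 0 between HFD_CGP and ND, where 35.7%, 17% and 23.3% of all genes tested had one. HFD_DMSO vs ND and HFD_CGP vs HFD_DMSO share the HFD_DMSO library, and HFD_CGP vs ND shares a library with each of them.

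**Figure D1:**
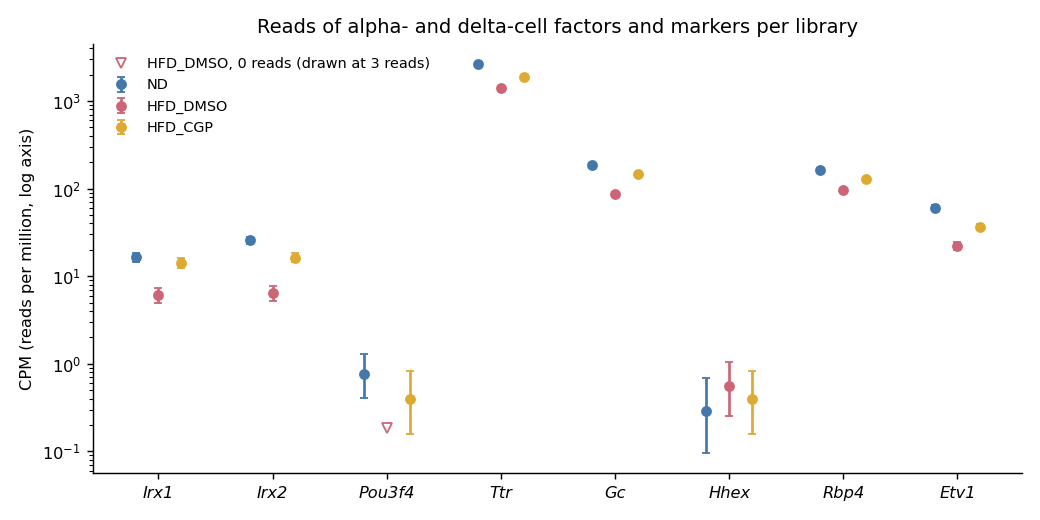
CPM of the 8 genes in the 3 libraries on a log axis, with 95% exact Poisson intervals (counting error only); the open triangle marks 0 reads of Pou3f4, drawn at the CPM of 3 reads. In 7 of the 8 genes the ND library was highest, and Ttr stood above all others.

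The Iroquois genes were lowest in HFD_DMSO. Irx2 (ENSMUSG00000001504, chromosome 13, 72628820 to 72634198 on GRCm38) had 439 reads in ND, 104 in HFD_DMSO and 287 in HFD_CGP, or 25.6 (interval 23.3 to 28.1), 6.38 (5.21 to 7.73) and 16.3 (14.5 to 18.3) CPM. The HFD_DMSO library was low, HFD_CGP lay between the others, and the intervals of the 3 libraries did not overlap. Irx2 fell in HFD_DMSO vs ND by 1.47 on the log2 scale, which is 2.76-fold (interval -1.79 to -1.16, adjusted p = 0.00722 in the authors' deposited table). Its log2 fold change was 0.70 (0.37 to 1.04) in HFD_CGP vs HFD_DMSO and -0.68 (-0.90 to -0.46) in HFD_CGP vs ND, and neither passed (adjusted p = 0.466 and 0.350 in the authors' deposited tables).

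Irx1 (ENSMUSG00000060969, chromosome 13, 71957921 to 71963723) lies 665 kb from Irx2 on the opposite strand, in the same Iroquois cluster. It had 282 reads in ND, 99 in HFD_DMSO and 249 in HFD_CGP, or 16.5 (14.6 to 18.5), 6.07 (4.94 to 7.40) and 14.1 (12.4 to 16.0) CPM. HFD_DMSO was again the low library, while the intervals of ND and HFD_CGP overlapped. The log2 fold change in HFD_DMSO vs ND was -0.90 (-1.24 to -0.56) and did not pass (adjusted p = 0.129 in the authors' deposited table). It was 0.56 (0.22 to 0.92) in HFD_CGP vs HFD_DMSO and -0.25 (-0.50 to 0.01) in HFD_CGP vs ND. The last value was -1.26, and not called, after the correction for GC content described below. Irx2 had more reads than Irx1 in each library: Irx1 had 0.642 reads per Irx2 read in ND, 0.952 in HFD_DMSO and 0.868 in HFD_CGP.

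Pou3f4 (ENSMUSG00000056854, a single-exon gene at chromosome X, 110814280 to 110817207) was scarce. It had 13 reads in ND, 0 in HFD_DMSO and 7 in HFD_CGP, or 0.759 (0.404 to 1.30), 0 (up to 0.184 by the 3 reads that a count of 0 allows) and 0.397 (0.16 to 0.818) CPM. The ND and HFD_CGP intervals overlapped. Pou3f4 fell in HFD_DMSO vs ND and was at least 2.84-fold lower against that limit of 3 reads (adjusted p = 0.0139 in the authors' deposited table). That limit leaves out the counting error of the 13 ND reads; the counting interval of the log2 fold change reached up to -0.997. Against HFD_DMSO the HFD_CGP library was at least 1.37-fold higher by the same limit, but the counting interval began at -0.24 on the log2 scale, so a difference was not detectable at this depth (adjusted p = 0.256 in the authors' deposited table).

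The carrier genes of alpha cells were abundant and were not called in any comparison. Ttr, transthyretin (ENSMUSG00000061808, chromosome 18, 20665250 to 20674324), had 45514 reads in ND, 22710 in HFD_DMSO and 32940 in HFD_CGP, or 2657 (2633 to 2682), 1394 (1375 to 1412) and 1869 (1849 to 1889) CPM. Its log2 fold changes were -0.39 for HFD_DMSO against ND, -0.23 for HFD_CGP against HFD_DMSO and -0.53 for HFD_CGP against ND, with counting intervals of -0.42 to -0.37, -0.25 to -0.20 and -0.55 to -0.51; the second turned to 0.42 with library totals. Counting error was thus small for Ttr, and the spread between animals was not measured. Gc, the vitamin D-binding protein (ENSMUSG00000035540, chromosome 5, 89417522 to 89457898), had 3219, 1421 and 2618 reads in ND, HFD_DMSO and HFD_CGP, or 188 (181 to 195), 87.2 (82.7 to 91.8) and 149 (143 to 154) CPM. Its log2 fold change was -0.57 (-0.66 to -0.48) in HFD_DMSO vs ND, 0.12 (0.02 to 0.21) between HFD_CGP and HFD_DMSO and -0.36 (-0.44 to -0.29) between HFD_CGP and ND. For both genes the CPM intervals of the 3 libraries did not overlap, with HFD_DMSO lowest; on the TMM scale HFD_CGP was the lowest library of Ttr.

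Among the delta-cell members Rbp4 and Etv1 were well covered and Hhex was not. Rbp4, the retinol carrier (ENSMUSG00000024990, chromosome 19, 38116620 to 38125321), had 2819 reads in ND, 1553 in HFD_DMSO and 2275 in HFD_CGP, or 165 (159 to 171), 95.3 (90.6 to 100.2) and 129 (124 to 135) CPM. Its log2 fold changes were small, at -0.25 (-0.34 to -0.16) in HFD_DMSO vs ND, -0.21 (-0.31 to -0.12; 0.44 with library totals) in HFD_CGP vs HFD_DMSO and -0.37 (-0.46 to -0.29) in HFD_CGP vs ND. Etv1 (ENSMUSG00000004151, chromosome 12, 38779380 to 38870484) had 1042, 362 and 635 reads in ND, HFD_DMSO and HFD_CGP, or 60.8 (57.2 to 64.6), 22.2 (20.0 to 24.6) and 36.0 (33.3 to 38.9) CPM. Both genes had CPM intervals that did not overlap between libraries, in the order ND, HFD_CGP, HFD_DMSO. On the TMM scale HFD_CGP was the lowest library of Rbp4. Etv1 had a log2 fold change of -0.91 (-1.09 to -0.74) in HFD_DMSO vs ND with an adjusted p of 0.0983 in the authors' deposited table, of 0.05 (-0.14 to 0.24) between HFD_CGP and HFD_DMSO and of -0.78 (-0.92 to -0.64) between HFD_CGP and ND, and did not pass in any of them.

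Hhex (ENSMUSG00000024986, chromosome 19, 37434810 to 37440731), which lies 676 kb from Rbp4, had 5 reads in ND, 9 in HFD_DMSO and 7 in HFD_CGP, or 0.292 (0.0948 to 0.681), 0.552 (0.253 to 1.05) and 0.397 (0.16 to 0.818) CPM. It was the member whose highest library was HFD_DMSO, with intervals that overlapped in all pairs. The log2 fold change of 1.43 in HFD_DMSO vs ND had a counting interval of -0.27 to 3.38, so a difference was not detectable at this depth. Its intervals in the other comparisons, -2.79 to 0.47 and -1.45 to 2.42, also included 0.

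**Figure D2:**
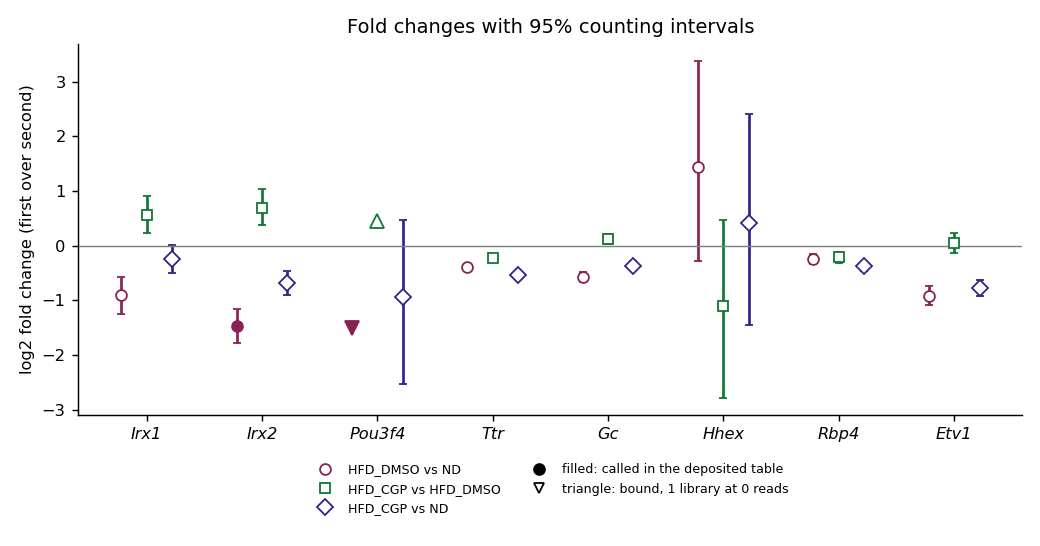
Log2 fold changes of the 8 genes in the 3 comparisons with 95% counting intervals; filled symbols were called in the authors' deposited table and triangles are bounds where 1 library had 0 reads. Irx2 at -1.47 and the bound of Pou3f4 in HFD_DMSO vs ND are the filled symbols.

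Per kilobase of the deposited gene length, the order of levels was similar in the libraries. In ND it was Ttr (2180 CPM per kb), Rbp4 (127), Gc (102), Irx2 (7.81), Irx1 (6.28), Etv1 (4.58), Pou3f4 (0.259) and Hhex (0.152), and only the last 2 had overlapping intervals. In HFD_DMSO the intervals of Irx1 (2.32 CPM per kb), Irx2 (1.94) and Etv1 (1.67) overlapped from each to the next, and Hhex (0.288) stood above Pou3f4 (0). In HFD_CGP Irx1 (5.39 CPM per kb) and Irx2 (4.96) overlapped, as did Hhex (0.207) and Pou3f4 (0.136). The secreted carriers thus stood above every transcription factor in each library. The deposited length of Hhex was 1918 bases, against 5056 exonic bases in GENCODE M21, so its level per kb depends on the length used.

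A ratio within a library does not depend on how libraries are scaled. It still carries the trend with GC content given below. Gcg itself fell in HFD_DMSO vs ND, from 373494 to 46533 reads, a log2 fold change of -2.39 (interval -2.41 to -2.38), and stood at 1.22 (1.2 to 1.23) in HFD_CGP vs HFD_DMSO, where it was not called. Every alpha-cell member with reads in all libraries had more reads per Gcg read in HFD_DMSO than in ND. Per 1000 Gcg reads, Irx2 had 1.18 (1.07 to 1.29) in ND, 2.24 (1.83 to 2.71) in HFD_DMSO and 1.56 (1.39 to 1.75) in HFD_CGP. Irx1 had 0.755 (0.669 to 0.849), 2.13 (1.73 to 2.59) and 1.36 (1.19 to 1.54) in the same order. Ttr had 122, 488 and 179, and Gc had 8.62, 30.5 and 14.3. The HFD_DMSO library was thus the highest of the 3 in each of these ratios, 4.00-fold above ND for Ttr and 1.90-fold for Irx2. Pou3f4 had 0.0348 per 1000 Gcg reads in ND and 0 in HFD_DMSO, where 3 reads would be 0.0645, so its ratio was not resolved.

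The direction of these ratios depends on the denominator. The median log2 change of the 5 alpha-cell members in HFD_DMSO vs ND was 1.49 against Gcg, and it turned to -0.71 against the summed granin genes Chga, Chgb and Scg2. Pou3f4, with 0 reads in HFD_DMSO, was ranked lowest in both medians. The members with reads in both libraries stood higher relative to Gcg and lower relative to the summed granins, at -1.27 for Irx2, -0.71 for Irx1, -0.38 for Gc and -0.20 for Ttr. The granins themselves differed in HFD_DMSO vs ND, with log2 fold changes of 0.81 for Chga, -0.11 for Chgb and -1.94 for Scg2. Scg2 gave 237936 of the 423529 granin reads in ND, and Chga gave 190027 of the 242709 in HFD_DMSO. The values against the sum thus depend on which granin dominates it. Against Sst, which had 63992, 42007 and 53585 reads in ND, HFD_DMSO and HFD_CGP, the delta-cell members differed from each other. Per 1000 Sst reads, Rbp4 had 44.1 (42.4 to 45.7) in ND, 37.0 (35.1 to 38.9) in HFD_DMSO and 42.5 (40.7 to 44.3) in HFD_CGP. Etv1 had 16.3 (15.3 to 17.3), 8.62 (7.75 to 9.56) and 11.9 (10.9 to 12.8), so it was lower per Sst read in HFD_DMSO by 1.89-fold, while Rbp4 was lower by 1.19-fold. After the GC correction described below, log2 fold changes in HFD_DMSO vs ND were -0.06 for Etv1, -0.59 for Sst and -0.96 for Rbp4. Etv1 was then not lower relative to Sst, while Rbp4 was. Hhex had 0.0781, 0.214 and 0.131 per 1000 Sst reads with overlapping intervals.

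**Figure D3:**
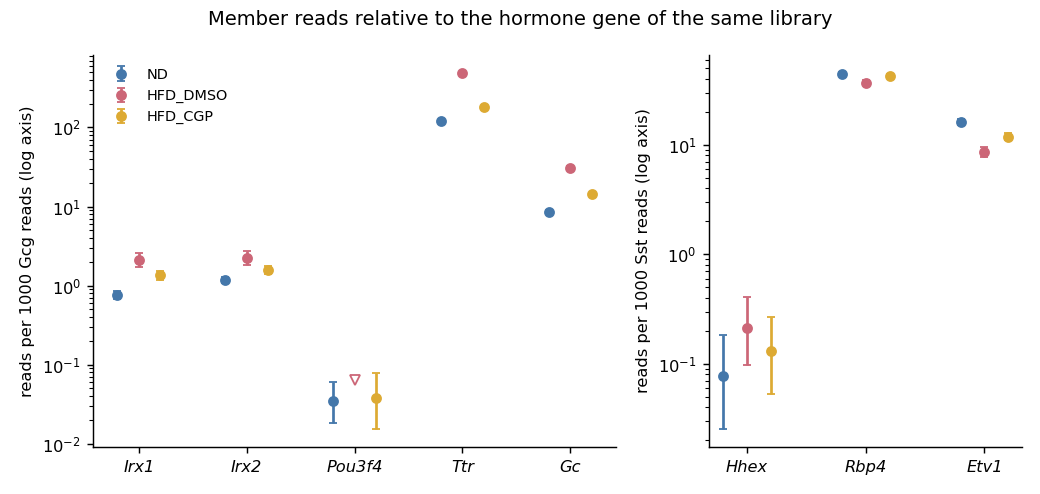
Reads per 1000 Gcg reads (left) or Sst reads (right) in each library on log axes, with exact 95% counting intervals; the open triangle is Pou3f4 in HFD_DMSO at 3 reads. Irx1, Irx2, Ttr and Gc were highest relative to Gcg in HFD_DMSO.

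Across all genes with at least 100 reads, fold changes in HFD_DMSO vs ND followed transcript GC content: over 10 GC bins of like size the median log2 fold change went from -1.17 at the lowest GC content to 0.82 at the highest. The members sit at different places on this trend. Irx1 (62.0% GC) was in the highest bin and Irx2 (54.5% GC) in bin 8, with a bin median of 0.40, and both had negative fold changes. With the trend subtracted, the log2 fold change was -1.93 for Irx1 and -1.91 for Irx2, and Irx1 was then called. Ttr (46.5% GC) and Gc (46.1%) were in bin 3, with a median of -0.77, and stood at 0.20 and 0.07 after the subtraction. Etv1 (43.8%) went from -0.91 to -0.06, and Rbp4 (57.4%) from -0.25 to -0.96. Relative to genes of like GC content the Iroquois genes were thus the lowest of the 6 members with at least 100 reads, and Etv1, Gc and Ttr lay near the trend. The ratios to Gcg were not corrected for this trend. Gcg (46.2% GC) stood at -1.77 after the subtraction, so neither Iroquois gene was then higher relative to Gcg, while Ttr and Gc still were. Between HFD_CGP and HFD_DMSO the bin medians went from 0.23 in the lowest bin to -0.05 in the highest, and Irx1 and Irx2 stood at 0.65 and 0.75 after the subtraction. In HFD_CGP vs ND the bin medians went from -0.85 in the lowest bin to 0.89 in the highest. Irx1 then stood at -1.26, Irx2 at -1.15 and Rbp4 at -1.09 after the subtraction, and none was called. Etv1 (-0.15), Ttr (-0.16) and Gc (0.05) lay near the trend. What the GC trend comes from was not tested.

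**Figure D4:**
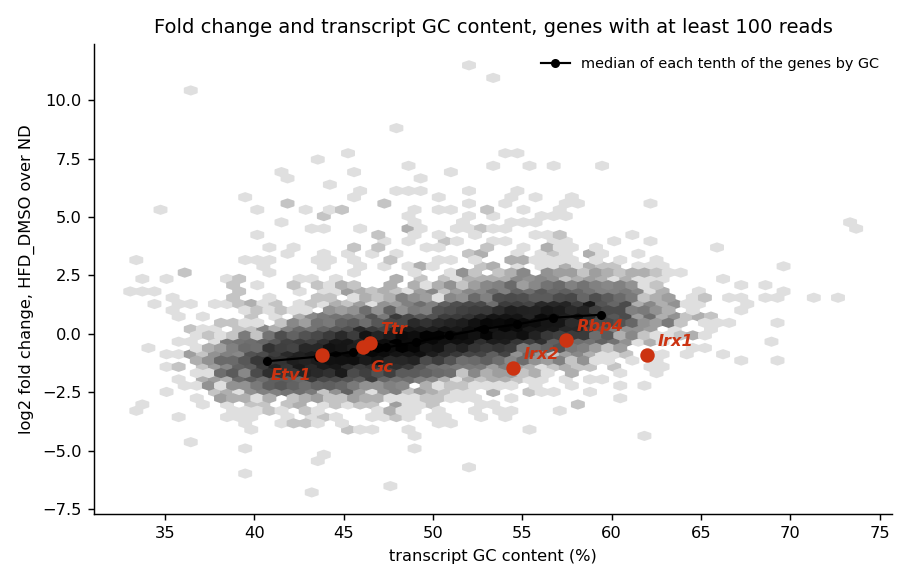
Log2 fold change in HFD_DMSO vs ND against transcript GC content in percent for all genes with at least 100 reads (grey, darker where more genes lie); the black line joins the medians of 10 bins and red points are the 6 members with at least 100 reads. Irx1 (to the right of the last bin median) and Irx2 lie below the level of the line, with corrected values of -1.93 and -1.91, while Ttr, Gc and Etv1 lie close to it.

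Other genes listed for the same cells were read from lists chosen with earlier results known. Which islet cells the reads of a listed gene came from was not tested, so the list counts are not measures of alpha or delta cells. Of 13 other genes listed for alpha cells 8 fell and 2, Gcgr and Fap, rose in HFD_DMSO vs ND, with a median log2 fold change of -1.48. Besides Gcg, the glutamate receptor gene Gria2 (-1.53), the dipeptidyl peptidase gene Dpp4 (-1.94), the chromatin remodeler gene Smarca1 (-2.05) and the vesicle gene Sv2b (-2.21) fell. Gcgr, the glucagon receptor gene, rose (1.60). After the GC correction 4 of the 13 fell and 1 rose, with a median of -0.97: Gcg (-1.77) and Sv2b (-1.54) were still called, while Gria2 (-0.51), Dpp4 (-1.06), Smarca1 (-1.03) and Gcgr (0.85) were not. The protease gene Fap rose from 6 to 30 reads (2.90), beside 7 of 8 stromal markers that rose. Between HFD_CGP and HFD_DMSO 1 of the 13, Fap, fell and 0 rose, with a median of 0.15; in HFD_CGP vs ND Dpp4, Sv2b, Smarca1 and Gria2 fell, Gcgr rose and the median was -1.09, and of these 5 genes Sv2b was still called after the GC correction.

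Of 7 measured genes listed for delta cells 3 fell in HFD_DMSO vs ND and 0 rose (median -0.92). The same 3 were called once GC content was corrected for, and the median was then -1.56. The calcium-sensing receptor gene Casr had 1005 reads in ND, 82 in HFD_DMSO and 298 in HFD_CGP, and its log2 fold change was -3.00 (-3.35 to -2.68). The ghrelin receptor gene Ghsr had 98, 4 and 32 reads in the same order (-3.97, interval -5.91 to -2.60), and the somatostatin receptor gene Sstr1 had 13, 0 and 2. Both Casr (-1.82) and Ghsr (-1.68) also fell in HFD_CGP vs ND, where Ghsr (-1.23) was not called after the GC correction, while 0 of 7 were called in HFD_CGP vs HFD_DMSO. While Casr, Ghsr and Sstr1 were called in HFD_DMSO vs ND, the receptor genes Ffar4 (-0.65) and Crhr2 (-0.92) of the same list were not. Sst (0.00, or -0.59 after the GC correction) and Rbp4 were not called either, and Hhex was too scarce to compare. The difference between the genes was not tested. Of 12 genes shared by endocrine cells, 5 fell in HFD_DMSO vs ND (Pax6, Insm1, Rfx6, Scg2 and Scg5) with a median of -0.83, or -0.52 after the GC correction, when Insm1 and Scg2 were still called lower and Foxa1 (5 against 0 reads) was called higher. Calls after the GC correction come from a likelihood-ratio test and not from the exact test. At 55.7% GC, where the trend is positive, the subtraction itself lowers the fold change of Foxa1. Insm1 rose (1.44) in HFD_CGP vs HFD_DMSO. Between HFD_CGP and ND 0 of 11 measured were called by the deposited edgeR exact test.

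**Figure D5:**
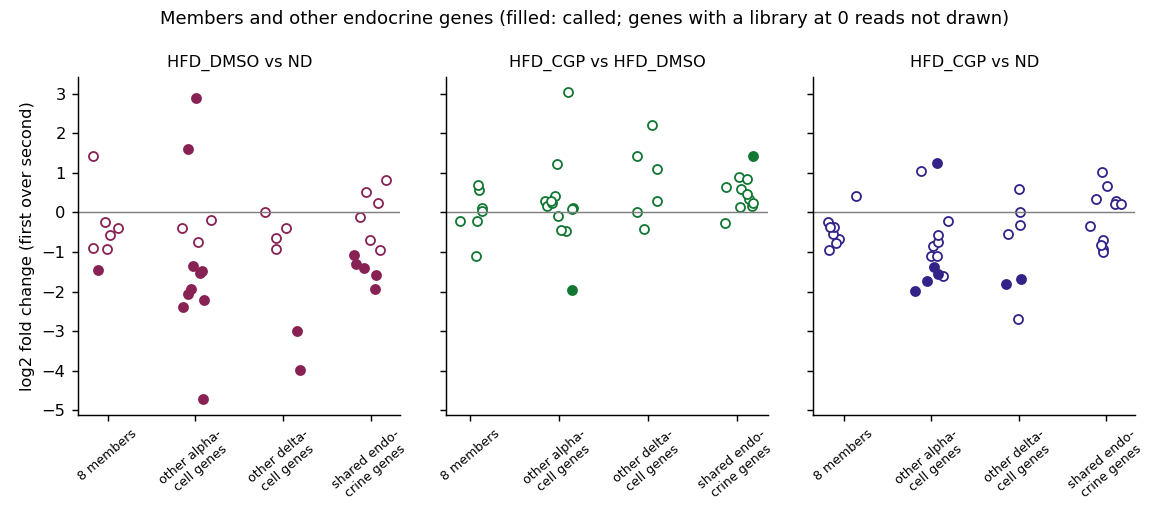
Log2 fold changes in the 3 comparisons of the 8 members and of 3 lists of endocrine genes, each point a gene and filled where called; genes with 0 reads in a library are not drawn. In HFD_DMSO vs ND the other genes listed for alpha cells extend from -4.72 to 2.90, while the drawn members extend from -1.47 to 1.43.

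Of 9 close relatives of the members 5 were measured in HFD_DMSO vs ND, and all but Etv5 were scarce. Irx3, another Iroquois gene, had 5 reads in ND, 21 in HFD_DMSO and 28 in HFD_CGP, and rose in HFD_DMSO vs ND (2.64, interval 1.23 to 4.44) and in HFD_CGP vs ND (2.39, 1.03 to 4.15), with an adjusted p of 0.0102 and 0.0309 in the authors' deposited tables. After the GC correction Irx3 stood at 1.60 and 1.36 and was called in neither. Irx5 had 0, 0 and 5 reads. The ETS-family genes Etv4 (3, 16 and 9 reads) and Etv5 (406, 539 and 676 reads) had log2 fold changes of 2.96 and 1.02 in HFD_DMSO vs ND, and Etv4 rose (2.07 and not called after the GC correction) while Etv5 did not pass; Etv1 stood at -0.91.

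Genes that handle the ligands of Ttr, Gc and Rbp4 were read as a separate list. Of 20 measured, 7 rose and 2 fell in HFD_DMSO vs ND, with a median of 0.98, or 0.39 after the GC correction, when 5 rose and 3 fell. The retinaldehyde dehydrogenase gene Aldh1a1 rose from 14 to 301 reads (5.02) and the retinal reductase gene Dhrs3 from 46 to 396 (3.71). Aldh1a3 (-1.49) and the deiodinase gene Dio1 (-1.07) fell. Between HFD_CGP and HFD_DMSO 4 of 21 fell, with Aldh1a1 at -3.04 and Dhrs3 at -1.38, and 0 rose; between HFD_CGP and ND 5 of 21 rose and 0 fell, or 2 and 0 after the GC correction. The stromal list (7 of 8 higher, 454 against 186 CPM summed) and the duct list (6 of 8 higher, 616 against 407 CPM) moved with these genes in HFD_DMSO vs ND, and 6 of 8 stromal and 5 of 8 duct markers fell in HFD_CGP vs HFD_DMSO; their part in the result was not tested.

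Liver and fat also make the carrier proteins. Summed over 12 hepatocyte markers the level was 8.17 CPM in ND, 11.7 in HFD_DMSO and 8.40 in HFD_CGP, with 5, 4 and 3 of the markers at 0 reads, and albumin (Alb) had 11, 27 and 10 reads. Of the hepatocyte markers measured, 5 of 10 rose in HFD_DMSO vs ND, and 3 of 9 fell and 1 rose in HFD_CGP vs HFD_DMSO. The fat-cell gene Adipoq had 0, 1 and 2 reads, and the 8 adipocyte markers summed to 13.1, 41.2 and 40.1 CPM, mostly Fabp4 with 12.8, 39.2 and 38.9; 3 of the 4 measured rose in HFD_DMSO vs ND. The lowest CPM values of the carriers, all in HFD_DMSO, were 1394 for Ttr, 95.3 for Rbp4 and 87.2 for Gc. On the TMM scale HFD_CGP was the lowest library of Ttr and Rbp4. What liver or fat RNA contributed to them was not tested. Of the other lists, acinar markers summed to 11501, 2656 and 148 CPM in ND, HFD_DMSO and HFD_CGP, endothelial markers to 317, 471 and 770, immune markers to 173, 201 and 200 and neural and Schwann markers to 110, 71.4 and 131. In HFD_DMSO vs ND acinar markers fell for 5 of 10 and rose for 2, endothelial markers rose for 3 of 8, immune markers rose for 5 of 8 and fell for 1, and neural and Schwann markers rose for 2 of 8 and fell for 2. In HFD_CGP vs HFD_DMSO 9 of 10 acinar markers fell. Their part in the members' values was not tested.

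Among 11029 protein-coding genes with at least 100 reads, the genes nearest to Irx2 by distance over the log2 fold changes HFD_DMSO vs ND and HFD_CGP vs HFD_DMSO were Tpd52l1 (distance 0.005) and Rheb (0.020). Nearest to Irx1 were Cops7a and Gprasp2, to Ttr Ndufb3 and Psma4, to Gc Ndufa4 and Fbxo18, to Rbp4 Anp32a and Mpp1, and to Etv1 Wdr43 and Ddc. Between 41 and 121 genes lay within 0.1 of each member over these 3 libraries, so such a likeness is common.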

How the data were processed

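Per the labels' protocols, islet RNA was extracted with Trizol and libraries were made with the TruSeq kit from 1 ug of total RNA. The submitters' processing notes name DESeq2 1.10.1. The aligner, the counter, the genome build and whether strand was used: not given in the sources used here. In each of the 3 full tables the authors deposited a signal column per group, read counts divided by a factor per library, plus a log2 fold change and p-value columns (raw and adjusted). Whole reads were recovered by dividing by the value of 1 read: 99.91% to 100% of a column's values lay within 0.1 of a whole number. edgeR 4.0.16 with TMM factors, a fixed dispersion of 0.04 and genes with at least 2 reads over the pair gave the deposited calls for all genes, with log2 fold changes within 0.00023; that this test underlies the deposited calls was found by recomputation. Calls printed are those of the authors' deposited table; log2 fold changes are the recomputed ones (prior count 0.125). Intervals are exact Poisson for levels and exact conditional binomial for fold changes and ratios. Transcript GC content is over all GENCODE M21 transcripts of a gene, and its trend was a loess fit (span 0.5) tested with a likelihood-ratio test. GENCODE M21 (GRCm38) held 99.8% of the gene IDs, 95.3% of them at identical coordinates, and coordinates are given on that build; no other gene there overlapped a member. The deposited gene length, in bases, was used for CPM per kb. The test was run on data simulated with the same dispersion of 0.04 that it assumes, so that run cannot check the dispersion. The genes named are the members, Gcg, Sst, called list genes with at least 100 reads (at most 4 a list) and the nearest genes; other list genes were named after their values were seen. Some list genes and ratios are not reported here and enter no list count. The members and lists were chosen with earlier results of these data known.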

Additional observations from a re-analysis of the deposited data

How the results depend on the processing

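With 1 library per group no replicate could be left out, and no p-value here measures the spread between animals. No paired analysis was possible because each group has 1 library. The count of called members in HFD_DMSO vs ND (2) was 0 with an assumed dispersion of 0.16 and 5 with 0.01 or with library totals. In HFD_CGP vs HFD_DMSO it was 1 with 0.01 and 2 with library totals, and in HFD_CGP vs ND it was 3 with 0.01, against 0 in both. DESeq2 size factors, totals without insulin, both filters, a pseudocount of 10 reads (which enters no call), the exclusion of acinar, duct, stromal and mitochondrial genes, the GC correction and the likelihood-ratio test without it, added after seeing the data, left each count within 1.5 times; the GC correction added Irx1 in HFD_DMSO vs ND. Over all genes, 5911, 1411 and 2060 were called for the diet, the inhibitor and HFD_CGP vs ND; these were 10097, 4671 and 7475 with a dispersion of 0.01 and 526, 171 and 81 with 0.16. Library totals called 3888 in HFD_CGP vs HFD_DMSO. In HFD_CGP vs ND the likelihood-ratio test called 1178 with the GC correction and 2705 without it. Fold changes of single members with reads in both libraries were repeated under each alternative setting, giving 242 values. Of these, 221 kept direction and call, 13 passed newly, 1 no longer passed and 7 changed sign. The values are not independent. The dispersion settings and the likelihood-ratio test without GC correction leave the fold change as it is, and the pseudocount leaves the call as it is. After the GC correction Ttr (0.20) and Gc (0.067) were positive in HFD_DMSO vs ND, Gc (-0.024) and Etv1 (-0.11) negative in HFD_CGP vs HFD_DMSO, and Gc positive (0.049) in HFD_CGP vs ND. With library totals Ttr (0.42) and Rbp4 (0.44) were positive in HFD_CGP vs HFD_DMSO. The GC correction of the list counts was also added after seeing the data. The median ratio change of alpha-cell members in HFD_DMSO vs ND, 1.49 against Gcg, was -0.71 against the summed granins, of which Chga and Scg2 moved in opposite directions. In HFD_CGP vs HFD_DMSO it went from -0.65 to 0.28, and in HFD_CGP vs ND from 0.56 to -0.71. Pou3f4, with 0 reads in HFD_DMSO and a ratio not resolved, was ranked lowest in HFD_DMSO vs ND and highest in HFD_CGP vs HFD_DMSO. Against granins in HFD_CGP vs HFD_DMSO the other alpha-cell members split, with Irx1 (0.28) and Irx2 (0.42) higher and Gc (-0.17) and Ttr (-0.51) lower. For delta-cell members the granins gave -0.057, -0.50 and -0.55 in these comparisons, against -0.25, 0.20 and -0.053 with Sst. The members' median minus that of all genes in HFD_CGP vs HFD_DMSO, 0.037, was -0.038 over genes with at least 100 reads. The cause of these changes was not tested. Depth limits Hhex and Pou3f4, with at most 13 reads a library.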
